A study of Rattus norvegicus with 12 samples.

Results

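The genes described here make cholesterol and fatty acids, or control that synthesis, and were measured in organotypic cultures of rat epidermal keratinocytes. The list names 38 genes, 28 of the sterol pathway and 10 of fatty acid synthesis, and a gene was matched when the name on the array, or an older name of the same gene, equalled the listed one. Of these 38 genes 33 were matched, 25 sterol and 8 fatty acid genes, with Msmo1 found as Sc4mol and Sc5d as Sc5dl. Mvk, Lss, Insig1, Fasn and Elovl1 found no match and were not analysed here. Nr1h3 and Elovl6 were detected on 0 of 12 arrays and Fads2 on 2, below the minimum of 3 arrays required for testing. This left 30 genes, 24 sterol and 6 fatty acid genes, among 10937 genes tested.

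The cells were of the REK line, keratinocytes from rat epidermis, grown on a collagen-coated insert with no feeder cells and raised to the air-liquid interface on day 3, so that they built an epidermal layer. The 4 groups held 3 cultures each, all of the same line. Control cultures were mock-irradiated and had no betaine, betaine cultures had 10 mM betaine, an osmolyte and methyl donor, for 11 days from day 4 with mock irradiation, and UVB cultures had 30 mJ/cm2 of UVB and no betaine. The fourth group had betaine and UVB. All were collected when 2 weeks old, 24 h after the real or mock exposure, and each array, an Illumina BeadChip, took 400 ng of a culture's total RNA.

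Cholesterol synthesis starts from acetyl-CoA, passes through mevalonate and the isoprenoids to squalene, and then through a series of sterols to cholesterol. The transcription factors SREBP-1 and SREBP-2, encoded by Srebf1 and Srebf2, drive the genes of sterol and fatty acid synthesis; SCAP escorts them out of the endoplasmic reticulum when sterols are low, and INSIG proteins hold them back when sterols are high. The LXR receptors sense oxysterols and drive cholesterol export. In epidermis, cholesterol and fatty acids, together with ceramides, form the lipid layers of the permeability barrier.

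Promoters of 24 of the 30 tested genes were found in a RefSeq table (GRCr8) of 250 bases before to 50 after a listed start. The 250 bases were searched on both strands for 2 motifs. That start can lie inside the RefSeq gene: for Ebp only 160 of the 250 bases lie before the gene. The counts of promoters below use all 250 bases. CCAAT, or ATTGG on the other strand, is the letters bound by NF-Y, a factor known to act with SREBP, and it was in 13 of 19 sterol promoters (68.4%) and 3 of 5 fatty acid promoters (60%). Of the promoters of all tested genes with an entry, 36.1% of 7677 held it. The sterol element as searched, TCACNCCAC, was in 0 of 24, against 0.86% of the 7677, and says only that these letters were not in the windows. The upstream bases of Ebp, Mvd and Fdps, whose transcripts were lower after UVB, are shown 5′ to 3′ on the strand of the gene because each holds the CCAAT letters, which are in capitals on whichever strand they read; the bases run up to the gene's start in RefSeq.
Ebp (chrX:16971212-16971371, + strand): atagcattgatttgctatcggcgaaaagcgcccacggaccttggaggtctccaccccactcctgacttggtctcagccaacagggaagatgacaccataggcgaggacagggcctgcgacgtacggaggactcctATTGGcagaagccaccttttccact
Mvd (chr19:67414975-67415224, - strand): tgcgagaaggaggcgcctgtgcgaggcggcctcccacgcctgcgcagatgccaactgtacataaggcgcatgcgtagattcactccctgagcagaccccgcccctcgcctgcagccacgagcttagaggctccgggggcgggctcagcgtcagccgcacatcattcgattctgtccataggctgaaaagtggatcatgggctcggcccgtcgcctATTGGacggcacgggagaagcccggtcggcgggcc
Fdps (chr2:176804817-176805066, - strand): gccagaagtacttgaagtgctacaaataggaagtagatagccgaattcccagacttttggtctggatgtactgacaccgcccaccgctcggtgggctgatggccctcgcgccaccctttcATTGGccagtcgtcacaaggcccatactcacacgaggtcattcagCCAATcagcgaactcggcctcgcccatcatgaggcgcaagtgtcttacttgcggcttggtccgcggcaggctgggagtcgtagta
Ebp and Mvd each hold 1 match in the bases shown and Fdps 2, 1 on each strand. A match describes the letters, not binding.

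Values below are normalised log2 intensities, changes are differences of log2 group means with the standard error of the model, and a gene counts as changed at a Benjamini-Hochberg adjusted p under 0.05 from limma over all 10937 genes. It is not recorded if cultures within a group were grown as independent experiments, and p-values therefore reflect only how far these 12 samples spread, which may be technical. Array medians before normalisation were 95.9 to 118 intensity units and 46.0 to 47.8% of probes were detected. The 6 general keratinocyte markers with a probe were detected on all arrays, 5 of 6 fibroblast and 2 of 2 endothelial markers on none, and 1 of 3 melanocyte, 4 of 7 adipocyte or sebocyte and 2 of 4 immune markers on none. Detected on all 12 arrays were the melanocyte markers Mlana and Pmel, the immune markers Cd68 and Cd3e, and Awat2 of the adipocyte or sebocyte list. Col3a1 of the fibroblast list was detected on 8 arrays, Cidec on 6 and Plin1 on 2. Betaine C had the lowest weight of the 12 arrays (0.272) in a fit that weights arrays by their agreement.

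Averaged over both betaine states, 11 of the 24 sterol genes fell after UVB and 0 rose, while 0 of the 6 fatty acid genes passed by the probe with the highest mean. A different probe for stearoyl-CoA desaturase, described with the fatty acid genes, was called lower in this comparison. These are 11 of 30 tested members, against 11.2% of all tested genes called and 5.16% called lower. The change was below 0 in 23 of 24 sterol genes, with a median of -0.22 against -0.01 over all genes. The falls were modest, from -0.46 for Nsdhl to -0.20 for Nr1h2, and they reached the mevalonate steps, the late sterol steps, Insig2 and the LXR-side genes Abcg1 and Nr1h2. In these bulk samples fewer cells of a type and less RNA per cell cannot be told apart.

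**Figure D1:**
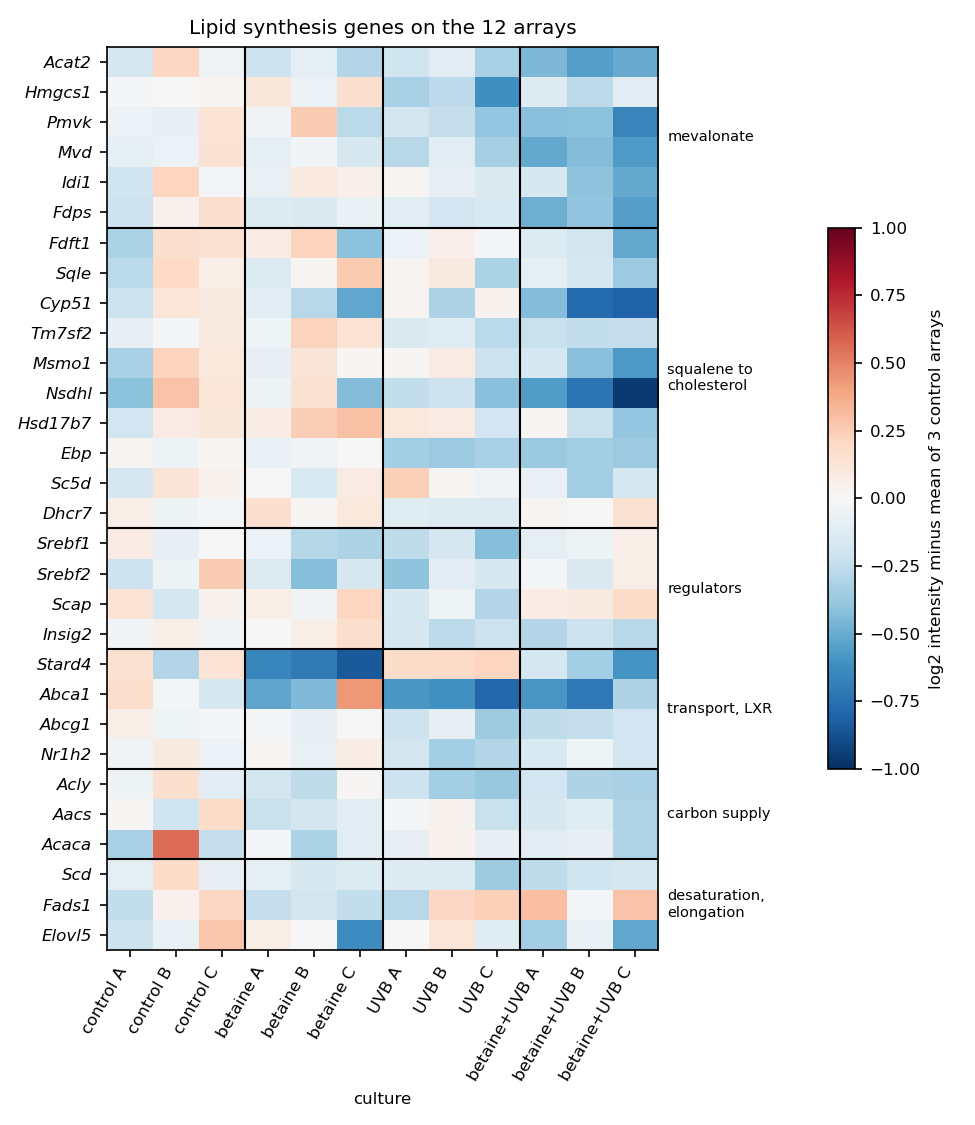
Each cell is 1 gene on 1 array, coloured by log2 intensity minus the mean of the 3 control arrays, with rows grouped by role and columns by group. The mevalonate rows other than Hmgcs1 have their lowest means in the betaine+UVB columns, Ebp is low in every irradiated culture, and Stard4 is low in the 3 betaine cultures.

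Dividing-cell markers moved with UVB too. All 6 with a probe rose in the averaged comparison, and their summed linear level was 3775 to 4641 in control, 2869 to 3037 with betaine, 6772 to 6870 after UVB and 6228 to 6560 with both. The summed level of the 5 basal markers with a probe was 72111 to 80395 in control, 71547 to 74896 with betaine, 61996 to 66550 after UVB and 69222 to 72774 with both, so the UVB cultures lay below every other group. These markers were split in averaged UVB: Krt15 fell, -0.58 ± 0.10 (adjusted p = 0.00205), Itgb4 rose, 0.26 ± 0.07 (adjusted p = 0.0444), and 3 of 5 were above 0. General keratinocyte markers summed to 80440 to 85167 in control, 78384 to 80923 with betaine, 76644 to 77491 after UVB and 79695 to 80563 with both. The summed suprabasal markers, 92849 to 102213 in control, stayed within that range in every group, but among them Krt2, a late epidermal keratin, fell in averaged UVB, -1.37 ± 0.23 (adjusted p = 0.00186), and rose in averaged betaine, 2.20 ± 0.23 (adjusted p = 0.000318). The part of these markers in the sterol changes was not tested.

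Of the 6 tested genes of the mevalonate arm 5 fell in the averaged UVB comparison, all but Idi1, and all 6 were below 0 (median -0.29). Hmgcs1 encodes the enzyme that condenses acetyl-CoA with acetoacetyl-CoA to HMG-CoA. Its log2 intensities were 13.95, 13.96 and 13.98 in control cultures A, B and C and 14.07, 13.91 and 14.13 with betaine. After UVB they were 13.64, 13.70 and 13.35, and with betaine and UVB 13.83, 13.70 and 13.85. Every irradiated culture lay below every mock-irradiated one, and the averaged UVB change was -0.32 ± 0.07 (adjusted p = 0.0122). It fell with UVB alone, -0.40 ± 0.10 (adjusted p = 0.0445), whereas the change from control to betaine with UVB was -0.17 ± 0.10 (adjusted p = 0.387). The call for UVB alone was kept without betaine B, betaine C or UVB B and lost without any 1 of the other 9 arrays, with adjusted p up to 0.144. It was also lost with no detection filter, with the replicate block, without control A and betaine C together and in a fit of only the groups compared (up to 0.113).

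Mvd, mevalonate diphosphate decarboxylase, makes isopentenyl diphosphate. Control cultures A, B and C had log2 intensities of 11.40, 11.43 and 11.63, and betaine cultures 11.39, 11.46 and 11.33. UVB cultures had 11.21, 11.37 and 11.16, and betaine+UVB cultures 10.97, 11.05 and 10.92. The betaine+UVB cultures lay below all other cultures, and among the rest only UVB B, at 11.37, exceeded any mock-irradiated culture, betaine C at 11.33. Mvd fell by UVB on average, -0.33 ± 0.06 (adjusted p = 0.00593), and from betaine to betaine with UVB, -0.41 ± 0.09 (adjusted p = 0.0197). With UVB alone it had -0.24 ± 0.09 (adjusted p = 0.182), no call. The largest difference was between betaine with UVB and control, -0.50 ± 0.09 (adjusted p = 0.00703). Pmvk, phosphomevalonate kinase, acts just before it. On the log2 scale cultures A, B and C measured 8.95, 8.92 and 9.13 in control and 8.97, 9.26 and 8.73 with betaine. Irradiation without betaine gave 8.82, 8.76 and 8.61, and with betaine 8.58, 8.59 and 8.34. The betaine cultures spread most, from 8.73 to 9.26, and betaine C lay below UVB A and UVB B. The averaged UVB change was -0.38 ± 0.09 (adjusted p = 0.0201) and the change from control to betaine with UVB -0.50 ± 0.13 (adjusted p = 0.0499), a call that was kept without betaine B or betaine C and lost without any 1 of the other 10 arrays (adjusted p up to 0.197), as well as with no detection filter or the replicate block (up to 0.0714). With the authors' deposited normalised values the 2 changes of Pmvk were smaller, -0.24 and -0.32, and still called. The averaged call was lost without control C, UVB C or betaine+UVB C (up to 0.0553).

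Fdps, farnesyl diphosphate synthase, makes the precursor of squalene. Its log2 intensities were 12.10, 12.35 and 12.47 in control cultures A, B and C and 12.18, 12.16 and 12.24 with betaine. In the UVB cultures the values were 12.20, 12.12 and 12.16, and in the betaine+UVB cultures 11.82, 11.92 and 11.76. The betaine+UVB cultures, at most 11.92, were below every other culture, and the remaining groups overlapped or differed little. Fdps fell on average, -0.26 ± 0.07 (adjusted p = 0.0306), from betaine to betaine with UVB, -0.36 ± 0.10 (adjusted p = 0.0469), and from control to betaine with UVB, -0.47 ± 0.10 (adjusted p = 0.0127). Acat2 encodes the cytosolic acetoacetyl-CoA thiolase at the head of the pathway. Control cultures A, B and C had log2 intensities of 12.97, 13.35 and 13.10, and betaine cultures 12.94, 13.04 and 12.85. After UVB they were 12.94, 13.03 and 12.81, and with betaine and UVB 12.69, 12.59 and 12.64. Again the betaine+UVB cultures were below all others, and the UVB and betaine cultures overlapped. The change from control was -0.50 ± 0.11 (adjusted p = 0.0158), and the averaged UVB change -0.26 ± 0.07 (adjusted p = 0.0442). Idi1, isopentenyl diphosphate isomerase, did not pass: its averaged UVB change was -0.22 ± 0.08 (adjusted p = 0.121), and betaine+UVB A, at 11.43, lay above control A, at 11.39. The averaged calls of Fdps and Acat2 were lost without any 1 of 8 arrays for Fdps (adjusted p at most 0.0798) and any 1 of 9 for Acat2 (at most 0.100). Fdps kept its averaged call without control A, betaine C, UVB A or betaine+UVB B, and Acat2 without control A, betaine C or UVB B. Against control, Fdps lost its call without control B, control C, betaine+UVB A or betaine+UVB C (up to 0.0659) and Acat2 without control B, betaine+UVB B or betaine+UVB C (up to 0.0645). With all arrays kept, the averaged call of Fdps was lost with the replicate block (0.0509), that of Acat2 with no detection filter (0.0544), and the call of Fdps against control in a fit of only the groups compared (0.0516). From betaine to betaine with UVB, Fdps among the leave-one-out fits kept its call only without control A or control C (otherwise up to 0.174), and lost it with median scaling, no detection filter, the replicate block or only the groups compared (up to 0.0718), and Mvd lost it without betaine A, betaine B, betaine+UVB A or betaine+UVB C (up to 0.0898).

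All 10 tested genes between squalene and cholesterol were below 0 in the averaged UVB comparison (median -0.21), and 3 fell: Ebp, Tm7sf2 and Nsdhl. The 2 parts of that average had different medians. With UVB alone the median of the 10 was -0.07 and 2 were above 0, whereas with UVB on betaine it was -0.33 and 0 were above 0. The interaction, which sets these 2 UVB comparisons against each other, called 0 of the 10 genes and 0 of 10937 genes in limma. The 2 parts are therefore not shown to differ, nor to be the same. Ebp encodes the sterol isomerase that moves the double bond of the sterol ring. On the log2 scale cultures A, B and C measured 12.92, 12.84 and 12.91 in control and 12.82, 12.85 and 12.88 with betaine. UVB cultures had 12.55, 12.53 and 12.57, and betaine+UVB cultures 12.52, 12.55 and 12.53. The 6 irradiated cultures, 12.52 to 12.57, and the 6 mock-irradiated ones, 12.82 to 12.92, did not overlap, and within each set betaine made little difference. Ebp fell by a similar amount in each UVB comparison: -0.34 ± 0.07 (adjusted p = 0.0128) with UVB alone, -0.32 ± 0.07 (adjusted p = 0.015) on betaine and -0.33 ± 0.05 (adjusted p = 0.000702) on average, a 1.26-fold fall. Betaine with UVB against UVB gave -0.02 ± 0.07 (adjusted p = 0.93). Ebp kept its averaged call, and that against control, without any 1 array. It lost the call for UVB alone without UVB B (adjusted p = 0.0562), and that on betaine without betaine B, betaine+UVB A or betaine+UVB C (up to 0.0655). In a fit of only the groups compared both were lost, with adjusted p of 0.0776 for UVB alone and 0.0566 on betaine.

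Tm7sf2 encodes a sterol reductase that acts after Cyp51. The log2 intensities of the probe used were 9.86, 9.93 and 10.03 in control cultures A, B and C and 9.90, 10.16 and 10.07 with betaine. Irradiation without betaine gave 9.79, 9.82 and 9.67, and with betaine 9.72, 9.70 and 9.70. The irradiated cultures, at most 9.82, lay below the mock-irradiated ones, at least 9.86. The averaged UVB change was -0.26 ± 0.06 (adjusted p = 0.0181) and the change on betaine -0.34 ± 0.09 (adjusted p = 0.0415). For the averaged UVB effect a second probe gave -0.04 ± 0.16 (adjusted p = 0.907) in a fit over all 11255 kept probes, with -0.29 ± 0.22 (adjusted p = 0.518) on betaine and 0.21 ± 0.22 (adjusted p = 0.721) with UVB alone. The averaged call thus depends on the probe, and with the mean of both probes it was lost (-0.15, adjusted p = 0.408). The averaged call of the first probe was also lost without control C (0.0502). The call on betaine was kept without control A, control B, control C, betaine A or UVB C and lost without any 1 of the other 7 arrays (up to 0.162). It was lost too with median scaling, the mean of both probes, the replicate block, without control A and betaine C together and with only the groups compared (up to 0.235). Nsdhl removes the methyl groups at a single carbon of the sterol together with Msmo1. Its log2 intensities were 10.15, 10.85 and 10.68 in control cultures A, B and C and 10.51, 10.71 and 10.13 with betaine. In the UVB cultures the values were 10.31, 10.36 and 10.14, and in the betaine+UVB cultures 10.00, 9.83 and 9.60. The betaine+UVB cultures, at most 10.00, were below all others, whereas control A and betaine C lay near UVB C, at 10.14. Nsdhl fell on average, -0.46 ± 0.13 (adjusted p = 0.0425), and had the largest fall of any member from control to betaine with UVB, -0.75 ± 0.19 (adjusted p = 0.0395), which is 1.68-fold. Both calls were lost without any 1 of 9 of the 12 arrays. The averaged one was kept without control A, betaine C or betaine+UVB A (otherwise up to 0.103) and the other without control A, betaine B or betaine C (up to 0.161). With no detection filter both were lost (0.0701 and 0.0656), and the second also in a fit of only the groups compared. Betaine averaged over both UVB states gave Nsdhl -0.28 ± 0.13 (adjusted p = 0.27), without a call.

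Cyp51, lanosterol demethylase, is the first step after lanosterol. Control cultures A, B and C had log2 intensities of 7.30, 7.64 and 7.61, and betaine cultures 7.41, 7.24 and 6.997. After UVB they were 7.54, 7.21 and 7.55, and with betaine and UVB 7.08, 6.75 and 6.71. UVB alone gave -0.08 ± 0.15 (adjusted p = 0.836). The betaine+UVB cultures, 7.08 or less, were below the UVB cultures, at least 7.21, and the controls, at least 7.30, but betaine C, at 6.997, was below betaine+UVB A. Cyp51 fell from control to betaine with UVB, -0.67 ± 0.15 (adjusted p = 0.0211), and with betaine averaged over both UVB states, -0.45 ± 0.10 (adjusted p = 0.0414). The first call was lost without control B, control C, betaine+UVB B or betaine+UVB C (up to 0.0969). The averaged betaine call was kept without control A, betaine A, UVB B or betaine+UVB A and lost without any 1 of the other 8 arrays (up to 0.112), as well as with the authors' deposited normalised values, no detection filter or the replicate block (up to 0.0601). With the authors' deposited normalised values the averaged betaine change was -0.17 and the change from control to betaine with UVB -0.25, the latter still called. Sqle, squalene epoxidase, had log2 intensities of 11.72, 12.18 and 12.06 in control and 11.85, 12.01 and 12.25 with betaine. Its values after UVB were 12.01, 12.08 and 11.67, and with both 11.90, 11.82 and 11.62. These groups overlapped, and its averaged UVB change was -0.16 ± 0.11 (adjusted p = 0.407). The other 5 genes without a call, Fdft1 (squalene synthase), Msmo1, Hsd17b7, Sc5d and Dhcr7, had averaged UVB changes of -0.22 to -0.05. Dhcr7, which makes the final reduction to cholesterol, went the other way between betaine with UVB and UVB, at 0.19 ± 0.08 (adjusted p = 0.248), the 1 of 10 genes above 0, without a call.

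**Figure D2:**
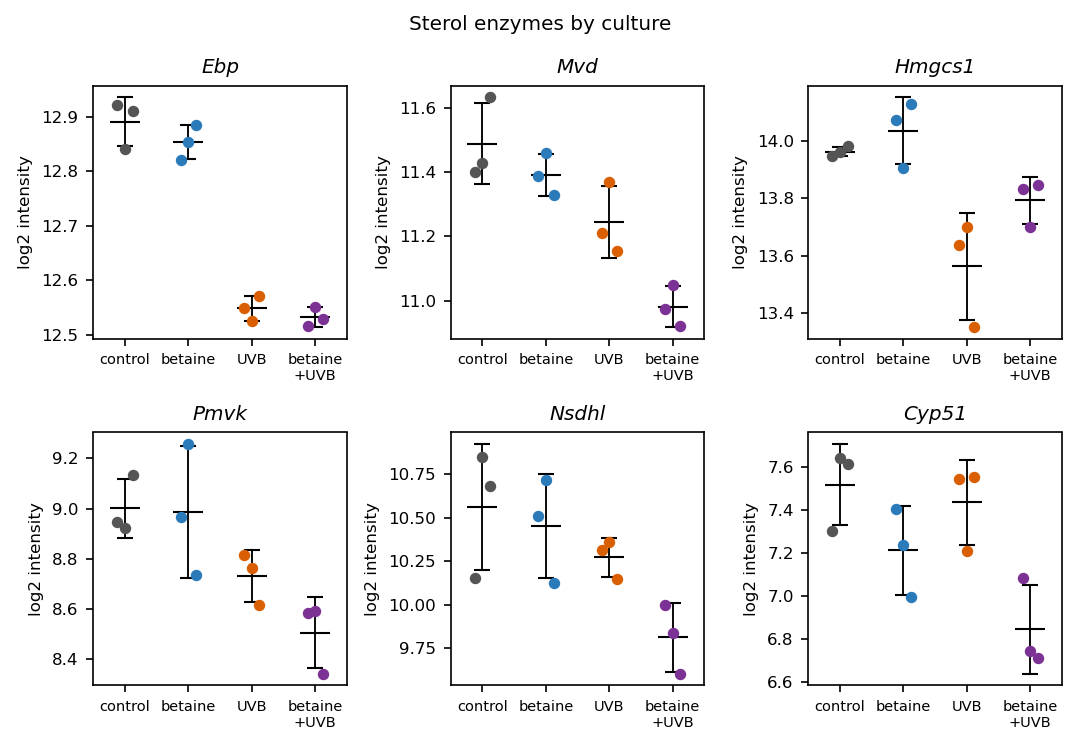
Log2 intensity of 6 sterol enzymes by group, with 1 point per culture, a long bar for the mean and short bars for 1 SD (n = 3). Ebp separates irradiated from mock-irradiated cultures, Hmgcs1 is lowest after UVB alone, and Mvd, Pmvk, Nsdhl and Cyp51 are lowest with betaine and UVB.

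From control to betaine with UVB, 7 members fell and 0 rose, all sterol genes: Acat2, Pmvk, Mvd, Fdps, Cyp51, Nsdhl and Ebp. That is 7 of 30, against 5.17% of all genes called and 2.18% called lower. In 14 of 30 members every betaine+UVB culture was below every control, which held for 13.8% of all genes. The mevalonate arm held 4 of the 7, and its median was -0.49, against -0.27 for all 24 sterol genes and -0.0025 for all genes tested. Of the UVB comparisons at fixed betaine, UVB against control called 2 members, Hmgcs1 and Ebp, with 4.96% of all genes called and 1.98% lower. Betaine with UVB against betaine called 5 members, Mvd, Fdps, Tm7sf2, Ebp and Insig2, all lower, with 6.14% of all genes called and 2.28% lower. The sterol medians were -0.20 and -0.31, against -0.02 and -0.01 over all genes. These comparisons were set against each other by the interaction, which called 0 of 30 members and 0 of 10937 genes (0%) in limma. At an unadjusted p under 0.05 it held 2 members, Srebf1 and Srebf2, and 8.05% of all genes. The interaction was below 0 in 5 of 6 mevalonate genes (median -0.19). From squalene to cholesterol it was below 0 in 8 of 10 (median -0.24), against a median of 0.02 over all genes. With a median standard error of 0.17 the interaction could miss differences of this size. The UVB change of the sterol enzymes is therefore not shown to differ with betaine, nor to be the same. Without 1 array the 7 calls became 2 (betaine+UVB C) to 9 (betaine C), with 3 without control B, control C or betaine+UVB B and 4 without betaine+UVB A. The 11 averaged UVB calls became 4 without control C, 5 without UVB C, 6 without control B or betaine+UVB C (for betaine+UVB C 5 lower, and Stard4 above 0 at a level not above background with betaine), 7 without betaine A, betaine B, betaine+UVB A or betaine+UVB B, and up to 10 without betaine C. The 5 calls on betaine became 0 without betaine B, betaine+UVB A or betaine+UVB C, 2 without betaine+UVB B, 3 without betaine A, UVB A or UVB B, and up to 6 without control A. In fits of only the groups compared, the 1 member called with UVB alone was Abca1, which has a dim probe, at -0.66 (adjusted p = 0.0209), and the 1 on betaine was Mvd. Those fits called 365 and 568 genes in all.

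**Figure D3:**
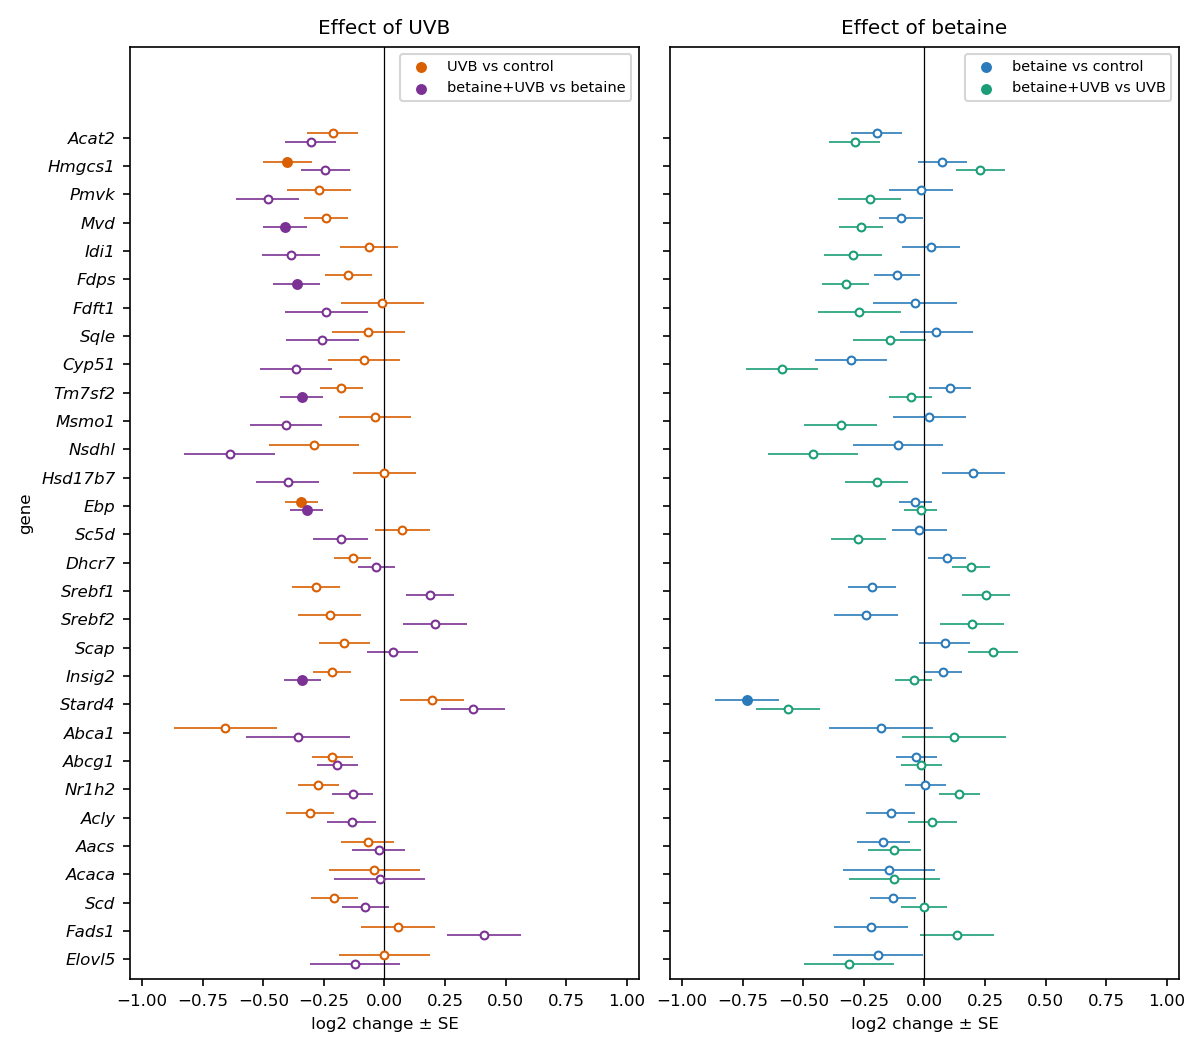
Log2 change with 1 standard error for the 30 tested genes, UVB comparisons on the left and betaine comparisons on the right; filled points passed at an adjusted p under 0.05. Most sterol enzymes lie left of 0 for UVB on betaine, and Stard4 is the filled point for betaine.

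Srebf1 drives genes of fatty acid and sterol synthesis. Its log2 intensities were 12.02, 11.86 and 11.93 in control cultures A, B and C and 11.88, 11.66 and 11.63 with betaine. UVB cultures had 11.68, 11.77 and 11.51, and betaine+UVB cultures 11.84, 11.88 and 12.004. Srebf2, which drives mainly the sterol enzymes, had log2 intensities of 7.47, 7.62 and 7.93 in control cultures A, B and C and of 7.53, 7.25 and 7.51 with betaine. Irradiation without betaine gave 7.27, 7.55 and 7.51, and with betaine 7.66, 7.52 and 7.74. For Srebf1 the UVB cultures lay below the controls, and the betaine+UVB cultures overlapped the controls; for Srebf2 all 4 groups overlapped. Neither passed in any of the 8 comparisons. Srebf1 had -0.28 ± 0.10 (adjusted p = 0.147) with UVB alone and 0.19 ± 0.10 (adjusted p = 0.321) with UVB on betaine, and the interaction was 0.47 ± 0.14 (adjusted p = 0.574), with an unadjusted p of 0.00583. Srebf2 had -0.23 ± 0.13 (adjusted p = 0.423) and 0.21 ± 0.13 (adjusted p = 0.418), with an interaction of 0.44 ± 0.19 (adjusted p = 0.601). Scap, the SREBP escort, had log2 intensities of 11.90, 11.59 and 11.80 in control cultures A, B and C and of 11.83, 11.73 and 11.98 with betaine. In the UVB cultures the values were 11.60, 11.72 and 11.47, and in the betaine+UVB cultures 11.84, 11.85 and 11.95. The betaine+UVB cultures, at least 11.84, were above the UVB cultures, at most 11.72, and that difference was 0.28 ± 0.10 (adjusted p = 0.214), without a call. The interaction was 0.20 ± 0.15 (adjusted p = 0.756).

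Insig2 encodes the sterol-dependent anchor of SCAP. On the log2 scale cultures A, B and C measured 10.42, 10.51 and 10.42 in control and 10.44, 10.51 and 10.63 with betaine. After UVB they were 10.28, 10.19 and 10.24, and with betaine and UVB 10.16, 10.24 and 10.17. Irradiated cultures reached at most 10.28 and mock-irradiated ones at least 10.42, so the sets did not overlap. Insig2 fell on average, -0.28 ± 0.05 (adjusted p = 0.0057), and on betaine, -0.34 ± 0.08 (adjusted p = 0.022), and kept the averaged call without any 1 array. The call on betaine was lost without betaine B or any 1 betaine+UVB culture (adjusted p up to 0.0902), and in a fit of only the groups compared (0.0731). With UVB alone it had -0.22 ± 0.08 (adjusted p = 0.155). Betaine averaged over UVB states gave 0.02 ± 0.05 (adjusted p = 0.907).

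**Figure D4:**
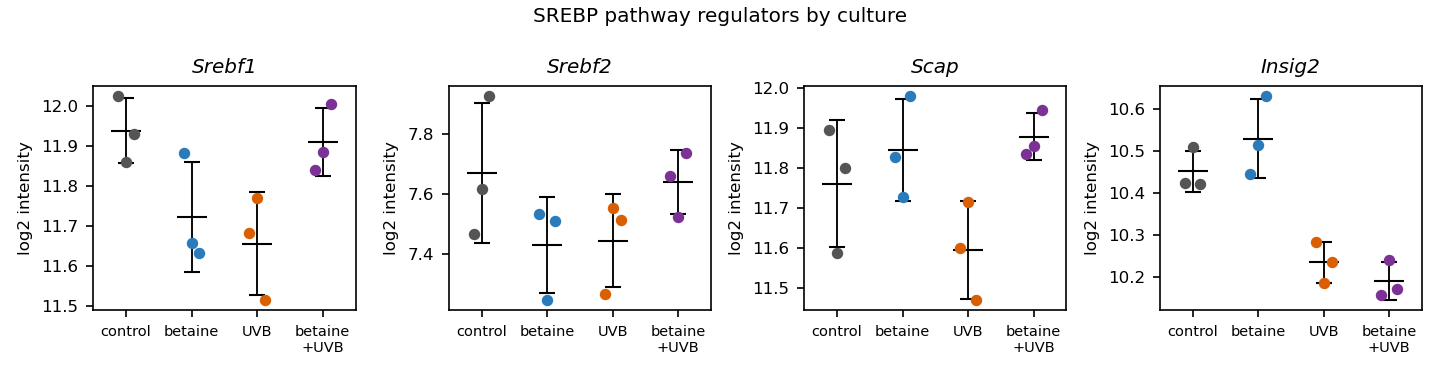
Log2 intensity of 4 SREBP pathway regulators by group, with 1 point per culture, a long bar for the mean and short bars for 1 SD (n = 3). Insig2 is lower in all irradiated cultures, while the Srebf1 and Srebf2 means are lower with betaine or UVB alone than with neither or both.

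Betaine against control called 1 member, Stard4, which carries cholesterol between membranes, with 0.896% of all genes called and 0.53% lower. Its log2 intensities were 6.09, 5.64 and 6.07 in control cultures A, B and C and 5.28, 5.22 and 5.10 with betaine. UVB cultures had 6.11, 6.12 and 6.15, and betaine+UVB cultures 5.75, 5.59 and 5.34. All betaine cultures lay below all others. Stard4 was detected in 3 of 3 control, 3 of 3 UVB, 1 of 3 betaine+UVB and 0 of 3 betaine cultures, so its level with betaine is a bound and it was at least 1.26-fold lower than in control (measured means 5.20 and 5.93). The fitted differences take measured values at background, so that they show direction and not size. They were -0.73 ± 0.13 (adjusted p = 0.028) for betaine, -0.65 ± 0.09 (adjusted p = 0.00355) for betaine averaged over UVB states and, without a call, -0.56 ± 0.13 (adjusted p = 0.0735) with UVB present. With no background correction the first 2 shrank to -0.42 and -0.36, and with the authors' deposited normalised values to -0.15 and -0.13. Stard4 was the 1 sterol gene with a fitted value above 0 in averaged UVB, 0.28 ± 0.09 (adjusted p = 0.0807), and between betaine and betaine with UVB no fold can be given, because the betaine+UVB mean lay below the bound for betaine. The averaged betaine call of Stard4 was kept without any 1 array. That of betaine against control was lost without control A, control C, any 1 betaine culture or UVB A, with adjusted p up to 0.113. It was also lost with the authors' normalised values, without control A and betaine C together, and in a fit of these groups alone (up to 0.173). Averaged betaine called 2 members, Stard4 and Cyp51, with 3.25% of all genes called and 1.58% lower. Betaine with UVB against UVB called 0 of 30 members in limma, with 0.887% of all genes called, and 13 members had an unadjusted p under 0.05, against 17% of all genes. All 13 were sterol genes, with Hmgcs1, Dhcr7, Srebf1 and Scap above 0 and the rest below.

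Abca1, the main exporter of cholesterol to apolipoproteins, had log2 intensities of 6.85, 6.66 and 6.52 in control cultures A, B and C and of 6.15, 6.24 and 7.11 with betaine. Irradiation without betaine gave 6.09, 6.07 and 5.89, and with betaine 6.09, 5.96 and 6.37. Betaine C, at 7.11, was the highest culture and the other 2 betaine cultures lay among the irradiated ones. Its averaged UVB change of -0.51 ± 0.15 (adjusted p = 0.0508) was the largest of the sterol genes and missed the threshold, and UVB alone gave -0.66 ± 0.21 (adjusted p = 0.118). The Abca1 probe was detected on all 12 arrays but was dim, at 120 to 195 intensity units before normalisation, against array medians of 95.9 to 118. The size of these changes is therefore uncertain. Abcg1, which exports cholesterol to HDL, had log2 intensities of 10.77, 10.67 and 10.69 in control cultures A, B and C and of 10.70, 10.63 and 10.70 with betaine. In the UVB cultures the values were 10.50, 10.63 and 10.35, and in the betaine+UVB cultures 10.45, 10.47 and 10.52. Only UVB B and betaine B, both at 10.63, met between irradiated and mock-irradiated cultures. Abcg1 fell on average, -0.21 ± 0.06 (adjusted p = 0.0457). Nr1h2 encodes LXR beta, the oxysterol receptor found in most tissues. Its log2 intensities were 10.20, 10.32 and 10.18 in control cultures A, B and C and 10.24, 10.16 and 10.31 with betaine. After UVB they were 10.05, 9.89 and 9.94, and with betaine and UVB 10.08, 10.19 and 10.04. Betaine+UVB B, at 10.19, was the 1 irradiated culture above any mock-irradiated one. Nr1h2 fell on average, -0.20 ± 0.06 (adjusted p = 0.0468). Both calls were close to the threshold and were lost without any 1 of 11 arrays (adjusted p at most 0.106 for Abcg1, kept without UVB B, and 0.113 for Nr1h2, kept without UVB A). They were also lost with the replicate block and without control A and betaine C together (up to 0.0902 and 0.0861).

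None of the 6 tested fatty acid genes, by the probe with the highest mean, passed in any of the 8 comparisons in limma. At an unadjusted p under 0.05 1 of them, Acly, was below in UVB against control (17.7% of all genes), in betaine with UVB against control (19.7%) and in averaged UVB (24.3%), and 1, Fads1, was above in betaine with UVB against betaine (20.3%). Their medians were -0.06 for UVB, -0.16 for betaine, -0.20 for betaine with UVB against control and -0.05 for averaged UVB, against -0.02, 0.0016, -0.0025 and -0.01 over all genes. All 6 were below 0 in betaine against control and in averaged betaine. These counts and medians use the probe listed as Scd, which may report a paralogue. A second probe, described below, was called lower in some comparisons. Acly, ATP citrate lyase, supplies cytosolic acetyl-CoA for both pathways. Control cultures A, B and C had log2 intensities of 11.94, 12.15 and 11.87, and betaine cultures 11.80, 11.74 and 12.0002. UVB cultures had 11.77, 11.65 and 11.61, and betaine+UVB cultures 11.80, 11.68 and 11.66. The UVB cultures, at most 11.77, and the betaine+UVB cultures, at most 11.80, were below the controls, at least 11.87. The changes were -0.31 ± 0.10 (adjusted p = 0.122) with UVB alone and -0.22 ± 0.07 (adjusted p = 0.0701) on average.

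Fads1, a desaturase of polyunsaturated fatty acids, had log2 intensities of 6.52, 6.80 and 6.97 in control cultures A, B and C and of 6.52, 6.58 and 6.52 with betaine. Irradiation without betaine gave 6.48, 6.97 and 6.999, and with betaine 7.07, 6.75 and 7.05. The betaine+UVB cultures, at least 6.75, were above the betaine cultures, at most 6.58, with 0.41 ± 0.15 (adjusted p = 0.152), and the averaged UVB change was 0.23 ± 0.11 (adjusted p = 0.211), the 1 fatty acid gene above 0 there. Acaca, acetyl-CoA carboxylase and the committed step of the pathway, had control B at 7.38 and the other 11 cultures between 6.495 and 6.86; its averaged betaine change was -0.14 ± 0.13 (adjusted p = 0.63). Aacs, acetoacetyl-CoA synthetase, had -0.15 ± 0.08 (adjusted p = 0.329), and Elovl5, an elongase of polyunsaturated fatty acids, had -0.25 ± 0.13 (adjusted p = 0.329) with betaine C the lowest culture at 7.74.

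Stearoyl-CoA desaturase, which makes monounsaturated fatty acids, has 2 probes on the array, listed as Scd and as Scd1. RefSeq gives Scd1 as an older name of Scd, and Scd as an older name of Scd2, a close paralogue, so the probe listed as Scd may report Scd2. The probe listed as Scd, which had the highest mean, had log2 intensities of 14.43, 14.71 and 14.44 in control cultures A, B and C and of 14.43, 14.36 and 14.38 with betaine. In the UVB cultures the values were 14.40, 14.39 and 14.17, and in the betaine+UVB cultures 14.27, 14.32 and 14.36. The irradiated cultures lay below the controls, of which control B was highest, and no comparison passed: betaine with UVB against control was -0.21 ± 0.10 (adjusted p = 0.257) and averaged UVB -0.14 ± 0.07 (adjusted p = 0.227). The probe listed as Scd1 had log2 intensities of 12.51, 12.77 and 12.62 in control cultures A, B and C and of 12.24, 12.20 and 12.31 with betaine. After UVB they were 12.45, 12.36 and 12.36, and with betaine and UVB 12.10, 12.02 and 12.01. All betaine+UVB cultures were below all others, the controls were above all others, and the UVB and betaine cultures lay between. It was fitted among all 11255 kept probes after its values had been seen. It fell from control to betaine with UVB with a change of -0.59 ± 0.08 (adjusted p = 0.00166), with betaine on average with a change of -0.37 ± 0.06 (adjusted p = 0.00815) and with UVB on average with a change of -0.22 ± 0.06 (adjusted p = 0.0332). Betaine against control was -0.38 ± 0.08 (adjusted p = 0.0641) and the interaction 0.04 ± 0.12 (adjusted p = 0.965). The call against control and the averaged betaine call were kept without any 1 array; the averaged UVB call was kept without control A, betaine C or UVB A and lost without any 1 of the other 9 (adjusted p up to 0.0822) or with the replicate block (0.0658).

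**Figure D5:**
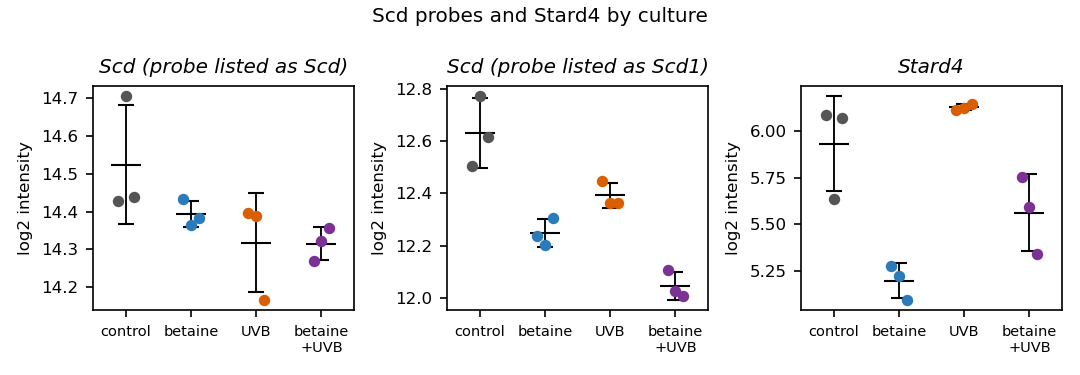
Log2 intensity of both Scd probes and of Stard4 by group, with 1 point per culture, a long bar for the mean and short bars for 1 SD (n = 3). The probe listed as Scd1 is lower with betaine, lower with UVB and lowest with both, and Stard4 is lowest with betaine alone, where it was not above background.

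Across the 12 arrays the 16 sterol enzymes had a median correlation between pairs of 0.63 (range -0.48 to 0.95) and the 6 fatty acid genes had 0.15 (-0.37 to 0.78). These are descriptions over arrays that share group differences and array quality, with no value over all genes to set them against. Other genes of the pathways were listed beside the members. Of 30 further sterol genes 24 were tested, and in averaged UVB 1 rose and 2 fell, a share near the 11.2% of all genes called. Scarb1, the HDL receptor, rose by 0.41 ± 0.07 (adjusted p = 0.00292), and Mylip, which degrades the LDL receptor and is an LXR target, was 1 of the 2 that fell, with -0.83 ± 0.15 (adjusted p = 0.00333). Of 43 further fatty acid genes 29 were tested, and 4 fell and 0 rose in averaged UVB, where 11.2% of all genes were called and 5.16% were lower. They were Acss2, which makes acetyl-CoA from acetate, at -0.44 ± 0.12 (adjusted p = 0.0392), Lpin1, a phosphatidate phosphatase, at -0.58 ± 0.10 (0.00238), Acadm, of mitochondrial beta-oxidation, at -0.72 ± 0.19 (0.0328), and Prkaa1, a subunit of AMP-activated kinase, at -0.25 ± 0.07 (0.0416). In averaged betaine 0 of 24 and 0 of 29 passed in limma, with 7 and 4 at an unadjusted p under 0.05, against 19% of all genes.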

How the data were processed

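The RatRef-12 BeadChip measured total RNA from 12 cultures, and the arrays' number limits the precision. Per the file headers, the authors' deposited table gives a mean signal intensity and a detection p-value for 22523 probes on each array; how the intensities were exported is not given in the sources used here. The authors also deposited processed values, read as log2 from their range, with array medians of 7.71, normalised by a method not given in the sources used here; per the submitters' processing notes R 2.11 and limma were used, with no role stated. They served as an alternative, and 174 probes lack one.

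Intensities were background-corrected, quantile-normalised and log2-transformed with neqc (limma 3.58.1, R 4.3.3; offset 16), where detection p-values stood in for the negative-control probes. Probes with a detection p under 0.05 on at least 3 arrays and a gene name were kept (11255), and 10937 genes were tested with the probe of highest mean. Names came from the array and a RefSeq table (GRCr8): 10291 probes by symbol, 1642 by gene ID, 4978 by an older name, 5495 kept the array's name and 117 had none. All 12 arrays entered 1 limma fit with a mean per group and no replicate block (8 residual and 3.83 prior degrees of freedom), giving 8 comparisons, with Benjamini-Hochberg adjustment across the tested genes in each. Standard errors had a median of 0.12 log2 between groups, 0.17 for the interaction and 0.086 for averaged effects. The procedure was also run on simulated data with independent noise and arrays of equal quality. These arrays differ from that, so the run does not vouch for the calls here. Members and gene lists were chosen with earlier results of these data known.

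Statistics are given for every member called in any comparison. For the 3 members of each list with the largest averaged UVB and betaine changes at least that change is given. Levels are given for Srebf1, Srebf2, Scap, Insig2, Hmgcs1, Sqle, Scd and Abca1 regardless. Promoters were taken from called members of the comparison with most calls that hold a searched motif. Enough bases had to lie before the RefSeq gene. Tm7sf2 also met this rule and is not printed, and the called members Hmgcs1, Insig2 and Nsdhl hold the CCAAT letters too. The printed stretch was limited to bases before the RefSeq gene after the tables had been seen. A bound for an undetected group takes, per array, the higher of the probe's own value and the lowest detected signal.

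The labels do not say that the letters mark a shared batch, so they were not taken as pairs. Correlations between same-letter cultures of their deviations from group means were -0.38 to 0.34, and for letter B -0.02 to 0.29. Cultures with different letters were not compared, so this check cannot exclude a shared batch. Alternatives were no background correction, median scaling, the authors' values, other detection filters, the mean of a gene's probes, array weights, a replicate block, fits of only the groups compared and each array left out; leaving out control A and betaine C together and fitting the second Scd probe were added after seeing the data.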

Additional observations from a re-analysis of the deposited data

How the results depend on the processing

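The direction of each called member change was kept under every alternative run. Without 1 array the number of members called ranged from 1 to 3 for UVB against control (2 in the report), 0 to 1 for betaine against control (1), 0 to 1 for betaine with UVB against UVB (0), 0 to 6 for betaine with UVB against betaine (5), 2 to 9 for betaine with UVB against control (7), 4 to 10 for averaged UVB (11) and 1 to 3 for averaged betaine (2). For UVB against control it was 8 with median scaling and 1 with no detection filter, in a fit of only these groups or with the replicate block. In that order these settings called 716, 459, 365 and 440 genes in all, against 542 in the report. For betaine against control it was 0 with the authors' values, without control A and betaine C together, and in a fit of only these groups. Over all genes these called 87, 34 and 7, against 98 in the report. For betaine with UVB against UVB it was 4 with array weights, 4 without control A and betaine C, and 1 in a fit of only these groups. For betaine with UVB against betaine it was 14 with array weights, 3 with median scaling, 3 with the replicate block and 1 in a fit of only these groups. Those settings called 2212, 590, 631 and 568 genes in all, against 672 in the report. For betaine with UVB against control it was 11 with array weights and 11 without control A and betaine C. For averaged betaine it was 7 with array weights, 1 with no detection filter and 1 with the replicate block, where 1272, 306 and 307 genes were called in all, against 355. Under the replicate block, which treats the letters as pairs although the labels do not say so, 8 members were called in averaged UVB and 6 in betaine with UVB against control. The block called 1109 and 539 genes in all in these comparisons, against 1229 and 565 in the report. With array weights the added calls included Fads1 higher in betaine with UVB against betaine and Dhcr7 higher in averaged betaine. Stard4 was called above 0 in betaine with UVB against betaine with array weights and in averaged UVB without betaine+UVB C, but it was not above background in any betaine culture, so no rise is read from these. The cause of these differences was not tested.

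Over all genes, array weights moved the calls from 542 to 830 (UVB against control), 98 to 430 (betaine against control), 97 to 762 (betaine with UVB against UVB), 672 to 2212 (against betaine), 565 to 1562 (against control), 1229 to 2383 (averaged UVB) and 355 to 1272 (averaged betaine). Without control A and betaine C there were 34 (betaine against control), 561 (betaine with UVB against UVB), 1218 (against betaine) and 1321 (against control), and a fit of only the groups compared gave 7 for betaine against control and 318 for betaine with UVB against UVB. Leaving out 1 array gave 315 to 709, 16 to 102, 26 to 238, 366 to 919, 317 to 905, 908 to 1516 and 179 to 421. Median scaling shifted the median of all genes to -0.11 in UVB against control and 0.11 in the interaction. With it the share of called genes that were higher went from 59.96 to 32.1% in UVB against control, 40.8 to 16.2% in betaine against control, 57.9 to 39.4% in betaine with UVB against control and 54.1 to 37.3% in averaged UVB. The averaged UVB calls of Ebp, Mvd, Hmgcs1, Insig2 and Pmvk and the averaged betaine call of Stard4 were kept under every alternative that kept all arrays, although the Stard4 change moved from -0.65 to -0.36 with no background correction and to -0.13 with the authors' values. Dim signals near background, as for Stard4, limit what these arrays can show.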

Other observations

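Further genes of the pathways passed in single comparisons in limma. Mylip, which marks the LDL receptor for degradation, had -1.01 ± 0.21 with UVB alone (adjusted p = 0.0169) and -0.96 ± 0.21 from control to betaine with UVB (adjusted p = 0.0207). Scarb1, the HDL receptor, had 0.41 ± 0.10 with UVB alone (adjusted p = 0.0421), 0.41 ± 0.10 with UVB on betaine (adjusted p = 0.0373) and 0.49 ± 0.10 from control to betaine with UVB (adjusted p = 0.0172). Rdh11, a retinol dehydrogenase, had -0.44 ± 0.12 with UVB on betaine (adjusted p = 0.0478). Among fatty acid genes, Lpin1 had -0.62 ± 0.14 with UVB alone (adjusted p = 0.0277) and -0.54 ± 0.14 on betaine (adjusted p = 0.0425). Acadm had -1.04 ± 0.28 with UVB on betaine (adjusted p = 0.0465), and Acss2 -0.76 ± 0.17 from control to betaine with UVB (adjusted p = 0.0268).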
